A study of Mus musculus with 8 samples.

Results

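The carbonic anhydrase genes Car1, Car2, Car3, Car4, Car5b, Car8, Car9, Car12, Car13 and Car14 were read on Affymetrix Mouse Genome 430 2.0 arrays, which measure each gene by 1 or more probe sets. They were chosen by symbol, using probe sets that the platform annotation assigns to 1 gene alone, which gave 10 genes with 21 probe sets among 18193 genes. The RNA came from the soft tissue of the cochlea (spiral ligament, organ of Corti and modiolus) of 8 CBA/CaJ mice, 1 array for each mouse with its ears pooled. All 8 arrays form 1 group, labelled normal cochlea, with urethane anesthesia and saline perfusion common to all and no age, sex or hybridization batch among the labels. The data therefore hold levels and their variation between mice, and no contrast between groups.

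Carbonic anhydrases are zinc enzymes that turn carbon dioxide and water into bicarbonate and a proton, and back. Car1, Car2, Car3 and Car13 are cytosolic, Car5b is mitochondrial, and Car4, Car9, Car12 and Car14 sit on the cell membrane with their active site outside, while Car8 has lost a zinc ligand and with it the enzyme activity. In the cochlea carbonic anhydrase activity has long been known from the spiral ligament fibrocytes and the stria vascularis, where bicarbonate enters the endolymph, and the enzymes are also abundant in red blood cells, muscle, fat and osteoclasts.

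Every value is a signal in arbitrary units, and a mouse number is only a name. Where a gene had several probe sets, the brightest on average stood for it. It was called detected when that signal exceeded, on each of the 8 arrays, a background threshold taken from genes the cochlea is not known to use, such as odorant and pheromone receptors. These thresholds ranged from 45.0 to 76.6. Each probe set binds RNA with its own strength, so no order of levels between the genes is given. In whole tissue, fewer cells of a type and less RNA per cell cannot be told apart. Precision is limited by the number of arrays, and the SD over mice includes the error of the assay. With 8 arrays the smallest p that the exact permutation test of a correlation can give is 2.48e-05. For Car1 the lowest p was this value, and its adjusted p over 11415 genes was 0.283. A relation that did not pass the adjustment is therefore not shown to be absent. Mouse 1 stood apart from the others on the first principal component of the detected genes (36.9% of the variance, loading 0.82), and results that rest on it are given with and without it.

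Of the 10 genes, 8 were detected, against 62.7% of all genes on the array. The detected ones were Car1, Car2, Car3, Car5b, Car8, Car12, Car13 and Car14. Car2, Car3, Car12, Car13 and Car14 lay at least 39.8 times above the threshold of their own array on every array, and they stayed detected with the threshold set at the 99th percentile of the background probe sets in place of the 95th. Car1, Car5b and Car8 lost their call at that stricter threshold, which left 5 detected genes. The same 8 genes exceeded the threshold on at least 4 arrays, against 68.7% of all genes. Car4 and Car9 were the members not detected.

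**Figure D1:**
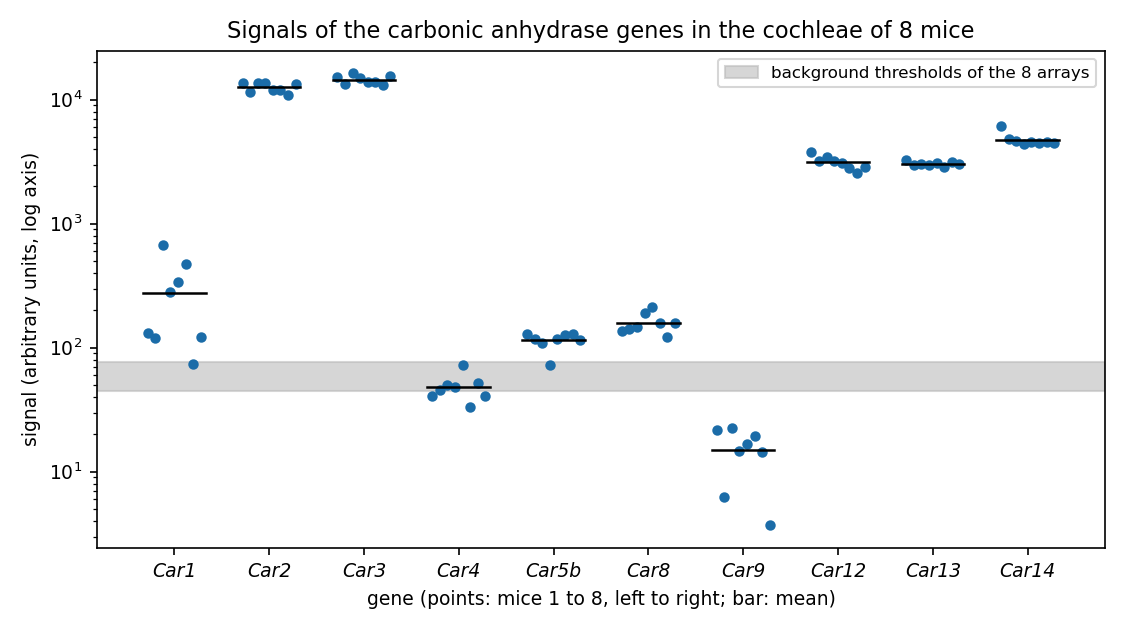
Signal of each carbonic anhydrase gene (vertical log axis, arbitrary units) in mice 1 to 8, drawn left to right within a gene, with the mean as a bar and the range of the arrays' background thresholds (45.0 to 76.6) in grey. Car2, Car3, Car12, Car13 and Car14 lie far above the grey band in all mice, Car4 lies in or below it and Car9 below it, and Car1 is the widest of the detected genes.

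The 250 bases before the annotated start are shown for Car9, Car12 and Car14, since Car9 and Car12 are both known in human tumour cells as genes that low oxygen induces, yet only Car12 was detected here, and Car14 is a detected membrane-bound relative. The sequences are from RefSeq (GRCm38.p6), read 5′ to 3′ on the gene's strand. Capitals mark ACGTG on either strand, a core that hypoxia-inducible factors bind, and other forms of that core were not searched.
Car9, chr4:43506776-43507025, plus strand: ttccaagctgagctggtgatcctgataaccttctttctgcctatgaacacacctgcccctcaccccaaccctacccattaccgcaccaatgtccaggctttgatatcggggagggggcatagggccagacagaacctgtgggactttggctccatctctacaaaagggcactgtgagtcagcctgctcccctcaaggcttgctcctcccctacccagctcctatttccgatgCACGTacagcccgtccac
Car12, chr9:66713436-66713685, plus strand: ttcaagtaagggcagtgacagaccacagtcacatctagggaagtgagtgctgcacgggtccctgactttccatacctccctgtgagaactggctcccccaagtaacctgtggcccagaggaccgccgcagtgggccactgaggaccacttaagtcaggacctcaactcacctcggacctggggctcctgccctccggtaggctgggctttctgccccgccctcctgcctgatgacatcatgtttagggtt
Car14, chr3:95904686-95904935, minus strand: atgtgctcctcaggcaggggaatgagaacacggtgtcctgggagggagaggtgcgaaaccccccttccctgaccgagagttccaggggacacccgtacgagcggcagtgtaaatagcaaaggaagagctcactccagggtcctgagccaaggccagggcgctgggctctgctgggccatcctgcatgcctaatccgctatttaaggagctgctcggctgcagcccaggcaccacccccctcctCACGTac
The motif begins 18 bases before the start of Car9 and 7 bases before that of Car14, and these letters are not in the Car12 window. Among 32851 promoter windows of this length, 16.6% held ACGTG on either strand, so a match is common and is given as a description only. Promoter sequences were matched for 5 of the 10 genes, and Car4 and Car5b held no ACGTG on either strand.

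Car2 encodes the fast cytosolic enzyme of red cells, osteoclasts and many epithelia. Its signal was 12565 ± 1124 (SD, n = 8), with a lowest value of 10937 in mouse 7, a median of 12649 and a highest of 13725 in mouse 1, a 1.25-fold range. Car3, a slow cytosolic enzyme abundant in muscle and fat, was at 14542 ± 1119 (SD, n = 8), with 13132 in mouse 7, a median of 14505 and 16326 in mouse 3. Neither of these probe sets had an outlying mouse. The SD of log2 signal was 0.13 for Car2 and 0.11 for Car3, close to the medians of 0.12 and 0.12 among the 500 detected genes nearest to each in signal.

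Car2 and the brightest probe set of Car3 were higher and lower in the same mice. Both were highest in mice 1, 3, 4 and 8 and lowest in mouse 7, with Pearson's r = 0.929 (exact permutation p = 0.00511) and Spearman's rho = 0.786 (exact permutation p = 0.0279) over the 8 mice. Adjusted over all detected genes tested against Car2, p was 0.404, so the relation did not pass. Leaving out the mice farthest from the median of Car2 gave r = 0.851, and leaving out mouse 1 gave 0.939. The level of the brightest genes of an array moved with both. The geometric mean signal of the 200 brightest other genes ranged from 8860 in mouse 7 to 10990 in mouse 3, and it correlated with Car3 at r = 0.953 (rho = 0.976, exact permutation p = 0.000694 and 0.000397) and with Car2 at r = 0.947 (rho = 0.762, exact permutation p = 0.00109 and 0.0368), 8 such relations having been computed. Without the mice farthest from the median of that level r was 0.995 for Car3 and 0.943 for Car2. The median r with that level was 0.572 for the 200 genes next in signal and -0.089 for all detected genes. Those next 200 genes were dimmer than the brightest 200, whereas Car2 and Car3 exceeded the geometric mean of the brightest on every array. These medians are therefore not for genes of like signal to Car2 and Car3. After quantile normalization, which gives all arrays the same distribution, Car2 ranged from 12316 to 13193 and Car3 from 13846 to 15406, and their correlation was r = 0.187.

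**Figure D2:**
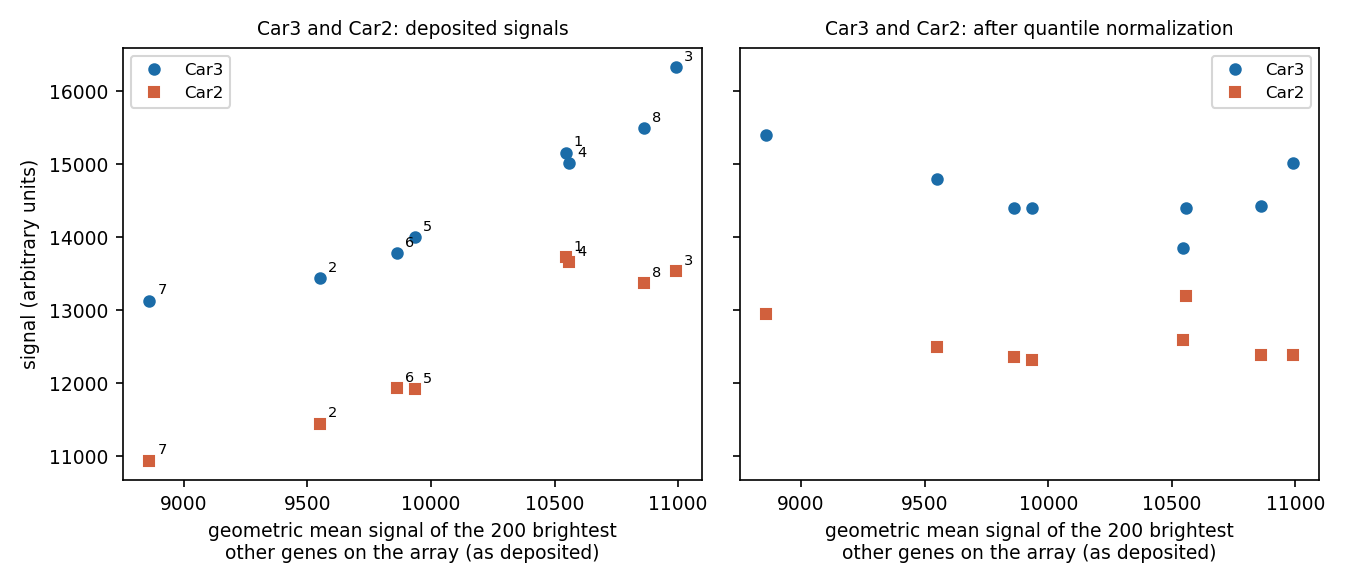
Signals of Car3 (circles) and Car2 (squares) in each mouse against the geometric mean signal of the 200 brightest other genes on the same array, as deposited (left, points numbered by mouse) and after quantile normalization (right); both axes are linear and the vertical axis does not start at 0. The deposited values of both genes are higher on arrays with a higher bright-gene level, and the SD of log2 signal falls to 0.036 for Car2 and 0.047 for Car3 after normalization.

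The genes that varied most like Car2 were Rpl11 (r = 0.979), a ribosomal protein gene, Atp5j2 (r = 0.973), an ATP synthase subunit gene, and Hspa8 (r = 0.971), a chaperone gene. Those most like Car3 were Naca (r = 0.976), Dbi (r = 0.975) and Pebp1 (r = 0.969), which encode a protein that binds nascent chains, an acyl-CoA binding protein and a phosphatidylethanolamine binding protein. Their p values were 7.44e-05 to 0.000967 by exact permutation, and adjusted over the 11415 genes tested they were 0.189 to 0.283. Spearman's rho was 0.857 to 1 for these 6 genes. After adjustment 0 genes (0%) passed for Car2 and 0 (0%) for Car3. In the exact permutation test 636 (5.57%) and 537 (4.70%) of the 11415 had an unadjusted p under 0.05. Chance alone gives a share near 0.05. Without mouse 1 the counts were 1196 (10.5%) for Car2 and 1186 (10.4%) for Car3. With the arrays scaled to the same median of detected genes, 23 genes passed for Car2.

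Markers of muscle and fat, tissues rich in Car3, were very uneven between the mice. The summed signal of 17 muscle genes reached 17902 in mouse 5, while the other mice had 1505 to 3026, and that of 10 adipocyte genes reached 14850 in mouse 5, while the other mice had 1212 to 2841. By its brightest probe set Car3 measured 13996.5 in mouse 5, within the range of the other mice. The median r of that probe set was 0.051 with the muscle genes and -0.243 with the adipocyte genes, or -0.176 and -0.377 without mice 3 and 7. Of the muscle list 3 genes were detected and Ckm and Myh7 were above background on no array; of the adipocyte list 4 were detected and Retn and Lep were above background on no array. All 9 listed genes of spiral ligament fibrocytes were detected, with a summed signal of 45776.5 to 55981. Of these, 6 correlated positively with Car3, and the median r was 0.189, or 0.022 without mice 3 and 7. The part of any of these cells in the Car3 signal was not tested. The osteoclast list, beside Car2, had 5 of 10 genes detected and a summed signal of 1078 to 2312, and Calcr, Ocstamp, Dcstamp and Oscar were above background on no array. Of its 6 genes above background on at least 1 array, 3 correlated positively with Car2, with a median r of 0.022. Without mice 2 and 7, 0 were positive and the median r was -0.610. The part of osteoclasts in the Car2 signal was not tested.

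The 4 probe sets of Car3 gave different patterns across the mice. The brightest, 1449434_at, was highest in mouse 3. The next, 1460256_at, measured 6690 ± 896 (SD, n = 8), with 8818 in mouse 1, while the other mice had 6003.5 to 6707. The remaining ones, 1430584_s_at (1885 ± 271) and 1453588_at (1752 ± 372), were both lowest in mouse 6, at 1393 and 1273. The correlation of the brightest pair was r = 0.018 (rho = -0.405, exact permutation p = 0.980 and 0.327, adjusted p = 0.99 over 4896 genes), and it was -0.632 without mouse 1. All 4 probe sets were above background on every array, so the detection of Car3 does not depend on the choice of probe set, whereas its pattern between mice does. In mouse 5, 1460256_at was at its lowest, 6003.5, while 1430584_s_at and 1453588_at were at 1997.5 and 2007, above their medians of 1898 and 1688. The relations of Car3 with other genes given here are for 1449434_at alone.

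**Figure D3:**
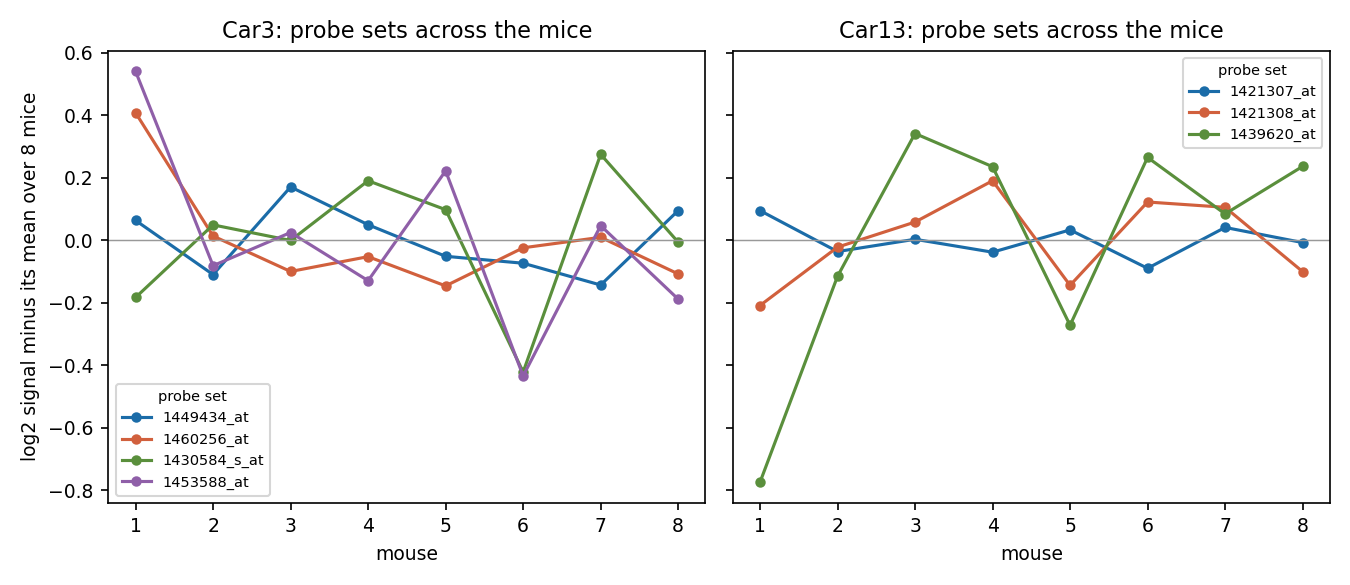
Log2 signal minus its mean over the 8 mice for each probe set of Car3 (left) and Car13 (right), by mouse; lines join the values of 1 probe set and imply no order of the mice. In mouse 1 the probe sets of a gene lie on both sides of 0, and the brightest probe set of Car13 is the flattest.

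Car13, a cytosolic enzyme, had the lowest SD of the detected members in the deposited scaling and by its brightest probe set. After quantile normalization Car2 (0.036) and Car3 (0.047) lay below Car13 (0.060), and with the mean of all probe sets Car13 (0.15) lay above both (0.13 for Car2 and 0.12 for Car3). It measured 3048 ± 121 (SD, n = 8), with 2862 in mouse 6, a median of 3041 and 3253 in mouse 1. Its SD of 0.057 (log2) was larger than that of only 4.80% of the 500 detected genes nearest in signal. The other probe sets were wider: 1421308_at ranged from 1227 to 1619 and 1439620_at from 566 to 1229, and both were lowest in mouse 1, where the brightest was highest. The brightest pair correlated at r = -0.652 (rho = -0.667, exact permutation p = 0.0801 and 0.0831, adjusted p = 0.249). Without mouse 1 it was -0.422. With 1439620_at the brightest correlated at r = -0.723 (rho = -0.571, exact permutation p = 0.0417 and 0.151, unadjusted) and at -0.396 without mouse 1. The other probe sets correlated with each other at r = 0.765 (rho = 0.619, exact permutation p = 0.0187 and 0.115, unadjusted) and at 0.605 without mouse 1. Genes varying most like the brightest probe set were Ric8b (r = 0.959), Snx25 (r = 0.958) and Sin3a (r = 0.933), with rho of 0.952 to 0.976 and an adjusted p of 0.537 for each in the exact permutation test. Of 11415 genes 0 (0%) passed, and 881 (7.72%) had an unadjusted p under 0.05, which was 285 (2.5%) without mouse 1. Without mouse 1 the r of Ric8b, Snx25 and Sin3a was 0.902 to 0.964. Of 15 neuron genes 14 correlated positively with Car13, with a median r of 0.606, against 0.085 over all genes. Without mice 6 and 1, the lowest and highest for both Car13 and the summed neuron signal (15855 and 40994), 2 of the 15 were positive and the median r was -0.557, so the direction turned. These values are for the brightest probe set, and mouse 1 was the lowest for the other Car13 probe sets. The neuron list had 13 of 15 genes detected, and its part in the Car13 signal was not tested.

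Car12 and Car14 encode transmembrane enzymes with an outward active site, and both had their highest value in mouse 1. Car12 measured 3124 ± 380 (SD, n = 8), with 2586.5 in mouse 7, a median of 3122 and 3807.5 in mouse 1. Car14 measured 4772 ± 583 (SD, n = 8), with 4382 in mouse 4, a median of 4579 and 6172 in mouse 1. The other 7 mice lay between 4382 and 4834 for Car14, so mouse 1 was set apart, whereas for Car12 the next highest mouse was at 3422.5. Without mouse 1 the SD of log2 signal was 0.048 for Car14, against 0.16 with it, and 0.14 for Car12, against 0.17. The genes correlated at r = 0.716 (rho = 0.452, exact permutation p = 0.0435 and 0.267, adjusted p = 0.362 over the genes tested against Car12), and at 0.283 without mouse 1, so the relation rests on that mouse.

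Car12 was set beside the marginal cell genes of the stria vascularis, the epithelium that secretes endolymph, and none passed the adjustment. Of the 6 measured genes of that list, 5 correlated positively with Car12, with a median r of 0.820, against 0.081 over all genes above background on at least 1 array. Esrrb, a nuclear receptor of these cells, measured 3237 to 4794 and correlated at r = 0.942 (rho = 0.905, exact permutation p = 0.00144 and 0.00456, adjusted p = 0.285 over 13573 genes). Kcne1, a potassium channel subunit, followed at r = 0.876 (rho = 0.857, exact permutation p = 0.00250 and 0.0107, adjusted p = 0.285). Esrrb was lowest and highest in the same mice as Car12, mice 7 and 1, and without both r was 0.754 for Esrrb, 0.659 for Kcne1, -0.050 for Bsnd and -0.446 for Hmx2, with a median of 0.628 over the 6 genes. Of 15 neuron genes 14 were also positive with Car12, with a median r of 0.495, and 12 without mice 1 and 7, with a median of 0.400. Of 12 proton pump genes 10 were positive, with a median r of 0.635, and 11 without these mice, with a median of 0.473. Hypoxia targets (7 of 10 positive) and spiral ligament fibrocyte genes (6 of 9) had medians of 0.514 and 0.497, or 0.217 and 0.207 without these mice. For Car14 the marginal cell list gave a median r of 0.770. Without the mice farthest from the Car14 median, mice 1 and 2, Kcne1 and Kcnq1 correlated with it at 0.483 and 0.465. The other 4 genes were then at -0.869 to 0.179. All 15 neuron genes were positive with Car14, with a median r of 0.480, and 8 without mice 1 and 2, with a median of 0.022. The marginal cell list as a whole had 5 of 6 genes detected and a summed signal from 10449 in mouse 7 to 15902 in mouse 1, and its part in the Car12 and Car14 signals was not tested.

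The genes most like Car12 were Sparcl1 (r = 0.976), 5031439G07Rik (r = 0.963) and Sfr1 (r = 0.954), with rho of 0.905 to 0.976 and adjusted p of 0.212 to 0.250 in the exact permutation test. The r without mice 1 and 7 was 0.854 to 0.922. Those most like Car14 were Stx8, a gene of vesicle fusion (r = 0.988), Fam78a (r = 0.988) and Arpc1a, an actin-branching subunit gene (r = 0.984), with rho of 0.857 to 0.976 and adjusted p of 0.131 to 0.138. These were highest in mouse 1 as well, and r without mouse 1 was 0.844, 0.928 and 0.890. An unadjusted p under 0.05 was found for 1518 of 11415 genes (13.3%) with Car12 and 3178 (27.8%) with Car14. Without mouse 1 it was found for 557 (4.88%) and 573 (5.02%), near the share of 0.05 that chance alone gives. After adjustment 0 (0%) passed for either gene. After quantile normalization, 6 genes passed for Car14.

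Car12 was also read by 1447762_x_at, at 153 ± 38.9 (SD, n = 8) and above background on all arrays, and by 1446517_at, at 11.6 ± 7.37 and above it on none. The brightest pair correlated at r = -0.469 (rho = -0.180, exact permutation p = 0.233 and 0.674, adjusted p = 0.462) and at 0.304 without mouse 1. Car14 had 1 probe set, whose name ending _s_at marks probes shared by several transcripts. Of all 4896 genes with a pair of detected probe sets, 7.58% had a pair that correlated positively with adjusted p under 0.05, and 0 of the 4 carbonic anhydrase genes with such a pair did. The count with an unadjusted p under 0.05 in the exact permutation test was also 0 of these 4 pairs.

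Car1 was the most variable member. It encodes a cytosolic enzyme known as a major protein of human red blood cells, and measured 278 ± 212 (SD, n = 8). The values were 74 in mouse 7, 121 in mouse 2, 122 in mouse 8, 131 in mouse 1, 281 in mouse 4, 341 in mouse 5, 475 in mouse 6 and 678 in mouse 3, a 9.22-fold range. The lowest value, in mouse 7, was 1.63 times the threshold of that array, so the fold range rests on a signal near background. The SD of 1.13 on the log2 scale exceeded that of 99.4% of the 500 detected genes nearest in signal, whose median was 0.24. Leaving out 1 mouse at a time gave an SD of 0.98 to 1.21.

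Red cell genes were high and low in the same mice as Car1. Hbb-b2, a beta-globin gene whose probes near-identical paralogs can bind, ranged from 1254 in mouse 7 to 9512 in mouse 6 and correlated with Car1 at r = 0.929 (rho = 0.857, exact permutation p = 0.00186 and 0.0107). Klf1, the master regulator of red cell genes, ranged from 28.9 in mouse 7 to 244 in mouse 3 and correlated at r = 0.982 (rho = 0.905, exact permutation p = 0.000198 and 0.00456). Adjusted over 13573 genes p was 0.374 and 0.372, so neither passed, which with 8 arrays does not show that a relation is absent. All 9 erythroid genes above background on at least 1 array correlated positively with Car1, with r from 0.780 to 0.982 and a median of 0.910, against a median of -0.052 over all genes so tested. The r without mice 3 and 7, farthest from the Car1 median, was 0.906 for Hbb-b2 and 0.974 for Klf1. The summed signal of the 13 measured erythroid genes ranged 9.28-fold, from 1398 in mouse 7 to 12969 in mouse 6. Only Hbb-b2 was above background on all arrays, and Hba-a1, Epb42, Rhag and Epor were above it on none. Of 6 osteoclast genes above background on at least 1 array, 5 also correlated positively with Car1, with a median r of 0.785. So did all 8 adipocyte genes (median r = 0.364, or 0.640 without mice 3 and 7). Of 15 muscle genes 14 were positive (median r = 0.427, or 0.399 without mice 3 and 7). The part of red cells or of any of these other cells in the Car1 signal was not tested.

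**Figure D4:**
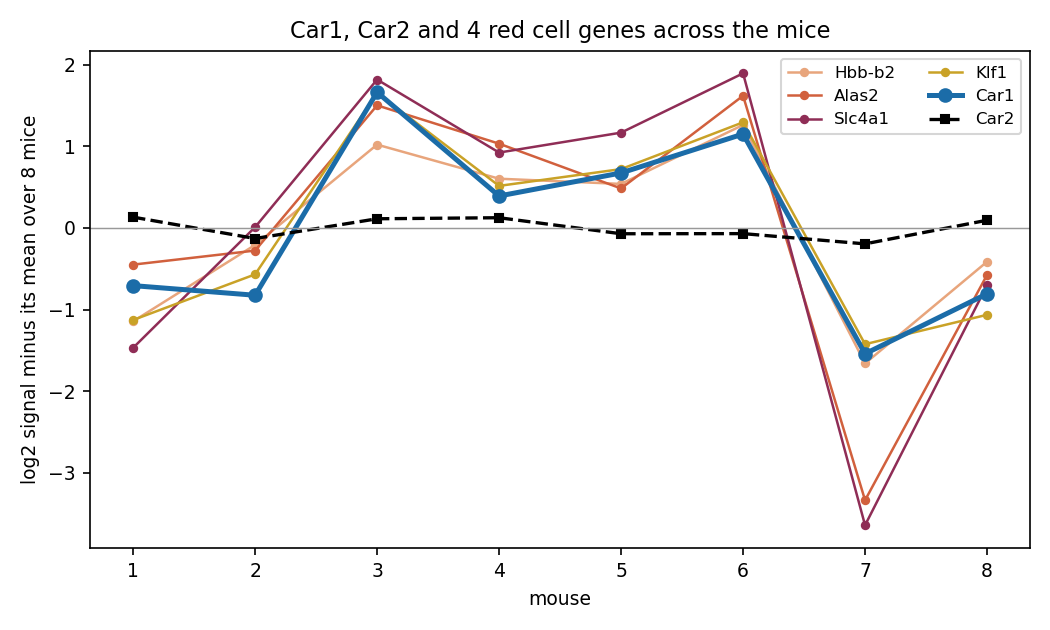
Log2 signal minus its mean over the 8 mice for Car1 (thick line), Car2 (dashed line) and the red cell genes Hbb-b2, Alas2, Slc4a1 and Klf1, by mouse; lines join the values of a gene and imply no order of the mice. Car1 and the red cell genes are high in mice 3 and 6 and low in mouse 7, while Car2 stays within a 1.25-fold range.

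Of all genes detected on every array, Ctse, which encodes cathepsin E, was the most like Car1 (r = 0.987, rho = 0.881, exact permutation p = 0.000298 and 0.00724). It measured 68.8 in mouse 7 and 643 in mouse 3. The next were Birc5 (r = 0.971) and Ccna2 (r = 0.958), which act in cell division, with 69.4 to 658 and 94.5 to 333. Adjusted p was 0.485 to 0.495 for these, and 0 of 11415 genes (0%) passed. An unadjusted p under 0.05 was found for 582 (5.10%), near the share of 0.05 that chance alone gives. Without mice 3 and 7 r was 0.961 to 0.978.

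Car2, also a red cell enzyme, had a median r of 0.280 with the same 9 erythroid genes, which turned to -0.434 without mice 2 and 7, and a highest value 1.25 times its lowest. The difference between the genes in this respect was not tested. Car1 and Car2 correlated at r = 0.335 (rho = 0.452, exact permutation p = 0.411 and 0.267, adjusted p = 0.973). In the RefSeq annotation Car13, Car1, Car3 and Car2 follow each other in this order on chromosome 3 with no other protein-coding gene between them. None of the other pairs among these neighbours passed: r was 0.429 for Car1 with Car3 and -0.412 for Car1 with Car13 (rho = 0.524 and -0.286, exact permutation p = 0.290 and 0.310, adjusted p = 0.973 for both), and 0.154 and 0.158 for Car13 with Car2 and Car3 (rho = 0.024 and 0.095, exact permutation p = 0.719 and 0.712, adjusted p = 0.868 and 0.865).

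Car5b and Car8 were detected near the threshold. Car5b, a mitochondrial enzyme, measured 115 ± 18.3 (SD, n = 8), with 72.9 in mouse 4, a median of 118 and 129.7 in mouse 1. In mouse 4 it was 1.18 times the threshold of that array, and the other mice lay between 109.8 and 129.7. Its other probe set, 1447928_at, was at 95 ± 11.6 and also lowest in mouse 4, at 77.7. The pair correlated at r = 0.681 (rho = 0.548, exact permutation p = 0.0531 and 0.171, adjusted p = 0.196), at 0.674 without mouse 1, and at 0.288 without mice 1 and 4. Car8, known for its high level in cerebellar Purkinje cells, measured 158 ± 29.8 (SD, n = 8), with 121 in mouse 7, a median of 152 and 212 in mouse 5. Of its other probe sets, 1424958_at (72.8 ± 20.7) was above background on 6 arrays and 1457904_at (12.3 ± 6.99, listed values of 2 to 21.2) on none. With probe sets ending _a_at, _s_at or _x_at set aside where another exists, Car8 was not detected.

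Both dim genes had an SD close to that of genes of like signal, 0.27 for Car5b and 0.26 for Car8, with medians of 0.28 and 0.27 among the 500 nearest. Without mouse 4 the SD of Car5b was 0.091. The cerebellar and central glial list, beside Car8, had 6 of 13 genes detected and a summed signal from 7009 in mouse 5 to 11805 in mouse 6, while Car8 was highest in mouse 5. Of its 9 genes above background on at least 1 array, 2 correlated positively with Car8, with a median r of -0.161. Without mice 4 and 5, 7 of the 9 were positive and the median r was 0.428, so the direction turned. Among the detected genes of this list were Zic2 (3663 ± 292), Cbln1 (2433 ± 430), Pcp2 (1035 ± 55.4) and Mobp (674 ± 1002) (SD, n = 8). Mobp measured 163 in mouse 5 and 2262 in mouse 6, while Pcp2 measured 1042 and 1011 in these mice. Gabra6, Cbln3, Opalin and Olig2 were above background on no array. Other lists moved with Car8. All 9 erythroid genes (median r = 0.619), all 8 adipocyte genes (0.645) and all 15 muscle genes (0.547) above background on at least 1 array correlated positively with it, against a median of -0.016 over all genes. Without mice 4 and 5, the median r was 0.751 for the erythroid, 0.029 for the adipocyte and 0.052 for the muscle genes, with 4 of 8 adipocyte and 9 of 15 muscle genes positive. None passed the adjustment over 13573 genes, and the part of these cells in the Car8 signal was not tested. The genes most like Car5b were Phospho2, Arap2 and Spint2 (r = 0.949, 0.938 and 0.937), and without mice 1 and 4 r was 0.766, 0.696 and 0.511. Those most like Car8 were Tmod4, Lrrc74b and Ccdc51 (r = 0.915, 0.913 and 0.909), and without mice 4 and 5 r was 0.711 to 0.743. Spearman's rho was 0.786 to 0.857 for these 6 genes. Adjusted p was at least 0.575 in the exact permutation test, and 0 genes (0%) passed for either. An unadjusted p under 0.05 was found for 618 (5.41%) and 323 (2.83%) of 11415, not above or little above the share of 0.05 that chance alone gives.

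Car4 and Car9, both membrane-bound, were not detected. Car4, an enzyme of capillary endothelium and some epithelia, had a signal of 47.9 ± 11.6 (SD, n = 8), from 33.2 in mouse 6 to 72.4 in mouse 5, and was above the threshold on 2 arrays. Its other probe set, 1418094_s_at (38.3 ± 13.9), was above it on 1. Of 9 endothelial genes 7 were detected, among them Emcn (3707 ± 331) and Flt1 (783 ± 124). Car9 measured 14.8 ± 6.81 (SD, n = 8), from 3.70 to 22.4, and reached at most 0.473 times the threshold of its array. A signal above background on no array was found for 25.4% of all genes. All 10 listed targets of hypoxia-inducible factors were detected, among them Pgk1 (9328 ± 678), Slc2a1 (7770 ± 353), Ldha (5336 ± 510) and Vegfa (433 ± 81.4). Probe sets differ in what they can measure, so a signal below background does not show that a gene is silent.

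**Figure D5:**
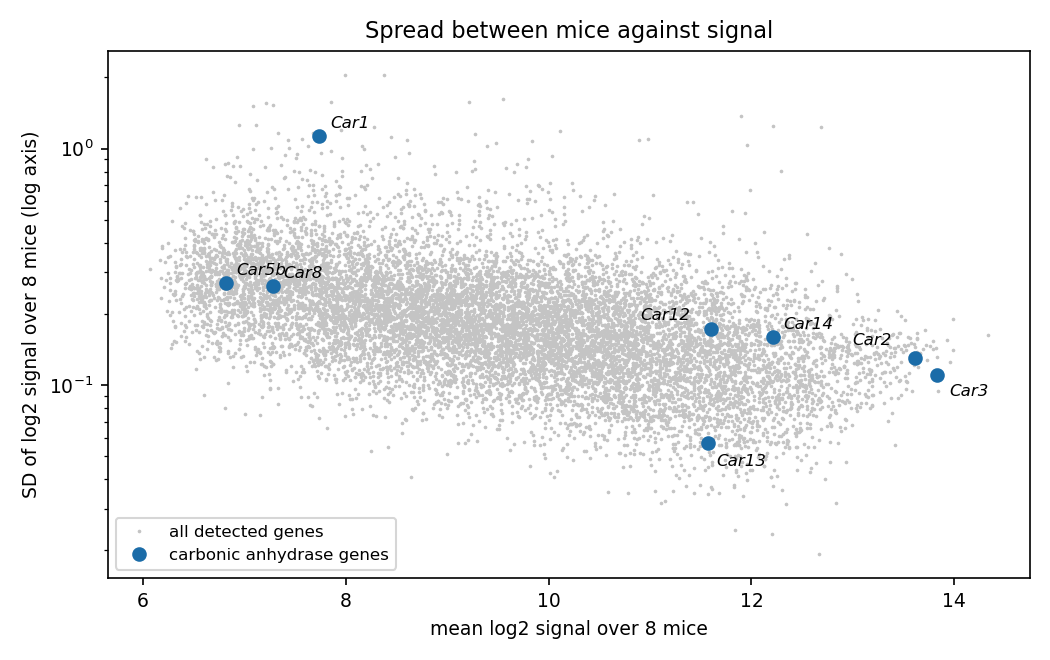
SD of log2 signal over the 8 mice (vertical log axis) against mean log2 signal for all detected genes (grey) and for the 8 detected carbonic anhydrase genes (blue). Car1 lies at the upper edge of the genes of its signal and Car13 near the lower edge, while Car2, Car3, Car5b and Car8 lie in the middle of the cloud.

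The carbonic anhydrase genes outside this set were mostly dim. Car11, which like Car8 and Car10 lacks enzyme activity, was detected at 444 ± 111 (SD, n = 8), from 294 in mouse 3 to 664 in mouse 1, and the cytosolic Car7 at 110 ± 18.3. Car10 (83.7 ± 17.0) was above background on 7 arrays and Car15 (69.7 ± 19.7) on 5. The mitochondrial Car5a (30.1 ± 9.71) and the secreted Car6 (15.1 ± 9.31) were above it on none. With these, 2 of 6 other family genes were detected.

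Together, these 6 genes and the genes that transport bicarbonate, protons and related gases and acids were detected for 31 of 53, or 58.5%, against 62.7% of all genes. Bicarbonate transport genes were detected for 7 of 14, with Slc26a4, the exchanger pendrin (9863 ± 928), Slc4a11 (7086 ± 802), the anion exchanger gene Slc26a7 (5606 ± 361) and the sodium-dependent carrier Slc4a10 (5287 ± 365) among them (SD, n = 8). Slc4a5 (4.10 ± 3.57), Slc4a9 (17.6 ± 11.5), Slc26a3 (24.8 ± 11.6) and the chloride channel Cftr (12.2 ± 10.4) were above background on no array. Slc4a1, the red cell exchanger, ranged from 38.4 in mouse 7 to 1784 in mouse 6.

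Proton pump genes were detected for 11 of 16. Among them were the vacuolar pump subunit genes Atp6v1g1 (9119 ± 569), Atp6v1d (6611 ± 480), Atp6v1e1 (5235 ± 207) and Atp6v1a (5016 ± 212). Atp6v1b1 (16.7 ± 20.3) and Atp6v0a4 (6.31 ± 4.50), subunits whose loss causes renal acidosis with deafness in humans, were above background on no array, as were the gastric and colonic pump genes Atp4a (22.6 ± 8.47) and Atp12a (9.5 ± 5.30). Sodium-proton exchange genes were detected for 6 of 9, including the exchanger regulators Slc9a3r1 (5635 ± 300.3) and Slc9a3r2 (1572 ± 137) and the exchangers Slc9a9 (1050 ± 176) and Slc9a2 (749 ± 65.3). Of the gas channels and monocarboxylate carriers 5 of 8 were detected, among them Bsg (5496 ± 637), Aqp1 (3175 ± 584), Slc16a1 (1689 ± 247) and Slc16a7 (335 ± 41.9), whereas Rhag (36.8 ± 28.1), Rhbg (14.8 ± 10.3) and Rhcg (5.08 ± 4.57) were above background on no array.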

How the data were processed

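RNA of cochlear soft tissue from 8 mice was measured on 1 array each. The deposited values are linear intensities, 1 per probe set. MAS5 made them, per the submitters' processing notes, and no version is given in the sources used here. Before deposit the authors had scaled the arrays to a common level, since the mean intensity, leaving out 2% at either end, came to 500.0 on all 8. The file held 0 other columns of samples. The annotation gave 1 gene to 34945 of 45101 probe sets, several to 932 and no gene to 9224.

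Signals under 1 were set to 1 before log2 was taken. Each array's background threshold was set at the 95th percentile over 153 background probe sets (121 genes, of which 5 were called detected). Correlations over mice were tested two-sided over all 40320 pairings, so the smallest possible p was 2.48e-05. Benjamini-Hochberg adjustment was made over all genes tested, with 0.05 as the threshold. Nothing beyond the labels shows how the mice were handled, and spread between mice includes that of the assay. Named were all family genes, the 3 detected genes outside the family most like each detected member, and up to 4 detected and 4 undetected genes of a list. The members and lists were chosen with earlier results of these data known. The tests were checked on simulated data. Alternatives were other normalizations, log offsets, thresholds, probe set rules, Spearman's rho and leaving out mice; those on the brightest genes, mice 1 and 7 together and genes above background on 1 array were added after seeing the data. Computation used Python 3.11.15 with matplotlib 3.10.9, scipy 1.17.1, pandas 2.3.3 and numpy 2.4.6.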

Additional observations from a re-analysis of the deposited data

Results flagged for a closer look

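Of 15 detected probe sets of the carbonic anhydrase genes, 3 had a mouse far from the others by Dixon's criterion, and among all detected genes the criterion was met by 12.6%; chance alone gives about 1 in 20. Car14 measured 6172 in mouse 1, whereas the next highest mouse was at 4834. The Car3 probe set 1460256_at measured 8818 in mouse 1, with 6707 as the next highest. The Car5b probe set 1419705_at measured 72.9 in mouse 4, with 109.8 as the next lowest. Mouse 1 also stood apart on the first principal component, and whether this bears on the Car14 and Car3 values was not tested.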

How the results depend on the processing

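Of the alternative values of the counts and spreads, 15 moved and 176 did not. A count was called moved when it changed beyond a set fold limit, and an SD when it changed by more than its standard error. Smaller changes are thus among those not moved. The 31 detected genes of acid and base handling became 25 with the mean of all probe sets. Above the threshold on at least 4 arrays were 36 of them, against 68.7% of all genes. The 8 detected members became 5 at the 99th percentile of background, losing Car1, Car5b and Car8, and were 7, without Car8, with the mean of all probe sets, and 8 without any 1 mouse. No paired analysis was possible because all arrays form 1 group. The SD (log2) moved after quantile normalization for Car2 (0.036) and Car3 (0.047), after scaling to the median of detected genes for Car3 (0.15), and after a straight line on the level of the 200 brightest genes for Car2 (0.042) and Car3 (0.033). With the mean of all probe sets it was 0.35 for Car8, 0.42 for Car12 and 0.15 for Car13. Without mice 1 and 7 it was 0.10 for Car12 and 0.052 for Car14. Leaving out 1 mouse gave 0.091 to 0.29 for Car5b, lowest without mouse 4, and 0.048 to 0.17 for Car14, lowest without mouse 1. Genes correlated with Car2 numbered 23 after scaling to the median, and with Car14 6 after quantile normalization, and 0 in the main test; the cause was not tested. The r of the brightest Car3 pair turned to -0.202 after quantile normalization, to -0.405 as Spearman's rho and to -0.632 without mouse 1, and that of Car12 to 0.304 without mouse 1 and 0.176 without the mice farthest from the median; none was called. Signals near the threshold limit what can be said of Car4, Car5b and Car8, and of Car1 in its lowest mice.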
